A study of Mus musculus with 4 samples.

Results

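Open chromatin was described at 9 mouse genes that belong to the CD4/CD8 coreceptors and to the double-positive stage of thymocyte development, out of 21887 protein-coding genes: Cd4, Cd8a, Cd8b1, Zbtb7b, Bcl6, Themis, Tespa1, Cd2 and Arpp21. The genes were taken as a list, and every peak overlapping a gene's mm10 span or the 40 kb on either side of it was counted for that gene. The windows of Cd8a and Cd8b1 run into each other, so the 9 genes make 8 loci. The samples were DN3 thymocytes of wild-type mice, double-negative precursors that carry neither coreceptor. Flow-sorted DN3 cells were split on magnetic beads into cells that bound an antibody to the adhesion molecule EpCAM (EpCAM-positive) and cells left unlabelled (EpCAM-negative), with 2 ATAC-seq libraries of each. ATAC-seq marks accessible DNA by where a transposase can cut it. The labels do not give the age of the mice, or say that a fraction's libraries are from different mice. The spread between libraries may therefore be technical, and 2 against 2 libraries cannot give an exact two-sided permutation p below 0.33. No region was therefore tested, and differences are described by whether the libraries of the fractions overlap.

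Double-negative thymocytes that have rearranged the T cell receptor beta chain pass through beta selection, divide and switch on CD4 and CD8 together. As double-positive cells they then rearrange the alpha chain and are selected, and one coreceptor is switched off as the cell becomes a CD4 helper or a CD8 cytotoxic T cell. Both coreceptor loci are under stage-specific control: Cd4 by an enhancer upstream of the gene and a silencer in its first intron, the Cd8 genes by a cluster of enhancers spread around both of them.

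The deposited lists held 26029 and 29030 peaks in the EpCAM-positive libraries, against 24598 and 25924 in the EpCAM-negative libraries. The lists reached down to different strengths. Their lowest −log10 q, q being the caller's adjusted p, was 2.07 and 2.02 in EpCAM-positive and 1.32 and 1.34 in EpCAM-negative lists. Peaks of any list that overlapped by at least 1 bp were joined into 36224 regions. The number of fragments piled up at each summit was solved from the authors' fold enrichment and −log10 p, on the assumption that the caller used the usual MACS definitions, and is called summit fragments. Over the regions called in all 4 lists its median was 31 and 32 in EpCAM-positive libraries, against 25 in each EpCAM-negative library, a ratio of 1.26, and the lowest common background was 1.34 times higher in the EpCAM-positive libraries. Summit fragments were therefore divided by that median to give a scaled summit pileup, in which 1 is the middle shared region of the library. A shared region is one called in all 4 lists. Of marker genes, a shared region had its summit inside or within 1000 bp of 4 of 6 DN3 genes, 2 of 6 thymic epithelial genes (Foxn1 and Cldn4), 1 of 4 B cell genes (Pax5), 1 of 5 myeloid and dendritic genes (Flt3), 2 of 4 mature T cell genes (Ccr7 and Klf2), 0 of 3 NK cell genes and 0 of 3 erythroid genes. Ptcra and Rag1 were the DN3 genes with none. Of all protein-coding genes, 38.5% had a shared region with its summit inside the gene, a rule without the 1000 bp margin. By their wider rule the DN3 and mature T cell lists lay above that share and the other lists below it. The lists are short, and the counts do not identify cells. Counted per library, DN3 genes with a region numbered 4 and 5 in EpCAM-positive and 6 and 6 in EpCAM-negative libraries, and thymic epithelial genes 3 and 4 in EpCAM-positive, against 2 and 3 in EpCAM-negative libraries. Rag1 counted in the EpCAM-negative libraries through peaks of 7 and 4 summit fragments, and the part of the lower cut of those lists was not tested. The part of other cells in the results was not tested, and fewer cells with an open site cannot be told apart from less opening per cell.

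The 9 windows held 44 regions, with 33 and 37 of them called in EpCAM-positive libraries, against 32 and 29 in EpCAM-negative libraries. Of these, 24 (54.5%) were shared, against 46.3% of all regions. EpCAM-positive-only regions, called in both EpCAM-positive lists and in neither EpCAM-negative list, numbered 2 (4.55%, against 4.40% of all regions), 1 at Zbtb7b and 1 at Arpp21. EpCAM-negative-only regions numbered 0, against 1.72% of all regions. A further 10 regions (22.7%) were called in 1 list alone, against 29.8% of all. Presence or absence in the lists thus separated the fractions at the member genes about as often as elsewhere. A start of transcription listed by RefSeq was available for 5 of the genes, with 16 starts between them. Of those starts, 5 lay inside a region, each time a shared one, against 43.8% of 21263 starts of all genes in a region of any pattern and 38.6% in a shared one. They belonged to Themis, Arpp21 and Bcl6, while no listed start of Cd8a or Zbtb7b lay in a region.

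The promoters below show the contrast between starts inside and outside a called region. Each is the 250 bases before a start (RefSeq, GRCm38.p6), read 5′ to 3′ on the gene's own strand. Capitals mark letters that match, on either strand, 1 of 8 short motifs: CANNTG, which E proteins bind, TGTGGT for the Runx factors, GGAAGT for the ETS family, AGATAA for the zinc-finger family of Gata3, CTTTGA for TCF and LEF factors, TGGGAA for Ikaros, GGGCGG for the Sp and KLF families, and TATAAA for the core promoter box. The first pair had no region over the start in any list, and the other 3 had a shared region over it.
Cd8a, chr6:71373177-71373426, plus strand: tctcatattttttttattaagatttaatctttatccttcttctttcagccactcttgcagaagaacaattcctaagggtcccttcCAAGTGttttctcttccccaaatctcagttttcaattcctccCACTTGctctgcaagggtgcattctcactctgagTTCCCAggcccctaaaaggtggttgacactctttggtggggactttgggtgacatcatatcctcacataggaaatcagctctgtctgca
Zbtb7b, chr3:89393379-89393628, minus strand: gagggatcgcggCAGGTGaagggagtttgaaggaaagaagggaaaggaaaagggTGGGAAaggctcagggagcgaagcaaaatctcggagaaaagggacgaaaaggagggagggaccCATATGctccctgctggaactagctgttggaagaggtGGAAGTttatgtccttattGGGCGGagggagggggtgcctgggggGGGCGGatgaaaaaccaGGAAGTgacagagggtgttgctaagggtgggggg
Bcl6, chr16:23988853-23989102, minus strand: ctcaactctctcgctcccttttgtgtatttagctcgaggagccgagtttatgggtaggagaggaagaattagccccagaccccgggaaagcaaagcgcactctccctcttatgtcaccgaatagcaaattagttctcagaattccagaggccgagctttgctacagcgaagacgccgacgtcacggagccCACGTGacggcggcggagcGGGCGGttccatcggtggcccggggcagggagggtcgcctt
Themis, chr10:28668110-28668359, plus strand: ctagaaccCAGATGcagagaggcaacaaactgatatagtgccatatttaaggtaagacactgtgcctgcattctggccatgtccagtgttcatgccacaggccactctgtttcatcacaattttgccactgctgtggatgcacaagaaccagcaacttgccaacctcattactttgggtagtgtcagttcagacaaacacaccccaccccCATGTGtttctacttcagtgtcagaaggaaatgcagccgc
Arpp21, chr9:112217352-112217601, minus strand: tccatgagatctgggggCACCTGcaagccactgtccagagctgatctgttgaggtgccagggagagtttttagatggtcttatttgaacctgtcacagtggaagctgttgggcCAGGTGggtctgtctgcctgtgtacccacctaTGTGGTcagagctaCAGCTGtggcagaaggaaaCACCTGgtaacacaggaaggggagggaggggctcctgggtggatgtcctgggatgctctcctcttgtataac
A CANNTG match stood in all 5, against 62.8% of 21238 promoters of this length, with 4 matches in Arpp21, 2 each in Cd8a, Zbtb7b and Themis, and 1 in Bcl6. TGTGGT was found in Arpp21 alone (12.4% of promoters) and GGAAGT in Zbtb7b alone (20.4%). TGGGAA stood in Cd8a and Zbtb7b (20.9%), and GGGCGG in Zbtb7b and Bcl6 (42.6%). None of the 5 held AGATAA (8.81%), CTTTGA (12.7%) or TATAAA (11.6%). No matches overlapped. A match of letters describes the sequence and is not a measured binding site.

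**Figure D1:**
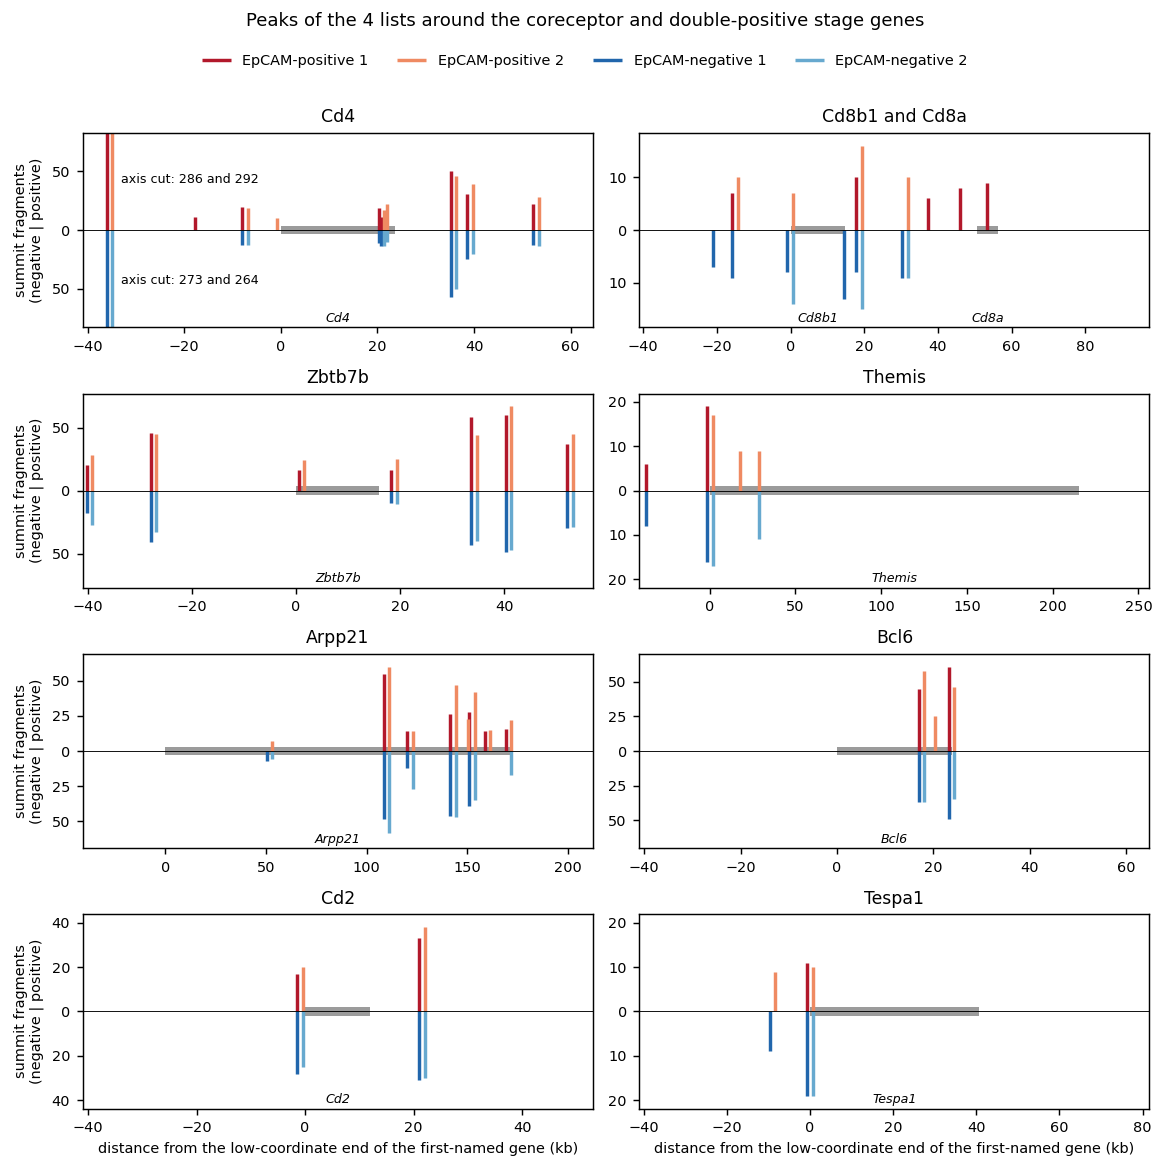
Peaks at the 8 loci: height is summit fragments per library, EpCAM-positive upward and EpCAM-negative downward, against distance in kb from the low-coordinate end of the gene (of Cd8b1 for the Cd8 locus). Grey bars are gene spans, and neighbouring bars are set slightly apart for legibility. The Cd4 axis is cut, and the bars at Usp5 reach 286 and 292 in EpCAM-positive and 273 and 264 in EpCAM-negative libraries. Bars at the Cd8 locus stop at 16 fragments, and single bars without a partner in the other libraries are most frequent there.

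The coreceptor Cd4, which binds MHC class II, lies at chr6:124864693-124888247, and its window held 9 regions, 7 of them shared. It had 86.9 regions per Mb, more than 94.2% of protein-coding windows. Most belong by position to its neighbours: 5 of the shared regions were nearer to the end of Usp5, P3h3, Lag3 or Ptms than to Cd4. Inside the gene there were 2 shared regions, both within 3 kb of the high-coordinate end, from which Cd4 is transcribed. The one at chr6:124885027-124885681 had summit fragments of 19 and 17 in EpCAM-positive libraries, against 11 and 14 in EpCAM-negative libraries. The other, at chr6:124885775-124886320, had 11 and 22 in EpCAM-positive, against 14 and 10 in EpCAM-negative libraries. Scaled values of the fractions overlapped at both regions, with log2 ratios of EpCAM-positive over EpCAM-negative of 0.19 (95% counting interval −0.58 to 0.99) and 0.12 (−0.68 to 0.95). Both sites were thus called in every library of these coreceptor-negative cells, and a difference between fractions was not detectable at this depth. Counting intervals here and below are Clopper-Pearson intervals on summed fragments and cover counting error only. Ranks of a log2 ratio given below are among shared regions of every strength, and ratios of regions with few fragments scatter more.

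The strongest peak between Cd4 and its neighbour Lag3, an inhibitory receptor gene, did differ in its scaled values. At chr6:124900225-124900893, 12156 bp beyond the high-coordinate end of Cd4 and 3956 bp from the nearer end of Lag3, summit fragments were 50 and 46 in EpCAM-positive libraries, against 57 and 50 in EpCAM-negative libraries. Scaled summit pileups were 1.61 and 1.44 in EpCAM-positive and 2.28 and 2.00 in EpCAM-negative libraries, so both EpCAM-positive values lay below both EpCAM-negative ones. The log2 ratio was −0.49 (counting interval −0.90 to −0.08), with 9.97% of all shared regions lower, and was −0.16 without scaling, where the fractions met at 50 fragments. The upstream Cd4 enhancer is known to lie between these genes, but whether this region is that element was not tested.

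Further regions of the Cd4 window ran in both directions. At the Lag3 end (chr6:124903568-124904310) the EpCAM-positive libraries had 31 and 39 summit fragments, against 25 and 20 in the EpCAM-negative libraries, with overlapping scaled values. Near the end of Ptms, a gene of a small acidic nuclear protein, a region at chr6:124917118-124917732 had 22 and 28 fragments in EpCAM-positive, against 13 and 14 in EpCAM-negative libraries. Its scaled values were separated upward in the EpCAM-positive libraries, with a log2 ratio of 0.55 (counting interval −0.15 to 1.29). The same held for a smaller region near P3h3 (chr6:124857091-124857470), with 20 and 19 in EpCAM-positive libraries, 13 and 13 in EpCAM-negative libraries and a log2 ratio of 0.25. The highest peak of any member window, over the end of the deubiquitinase gene Usp5 (chr6:124828888-124830138), had 286 and 292 in EpCAM-positive, against 273 and 264 in EpCAM-negative libraries. Its scaled values were lower in the EpCAM-positive libraries (log2 ratio −0.23, counting interval −0.40 to −0.06), a direction that turned to 0.11 without scaling. The remaining pair were called in 1 list each, near P3h3 in EpCAM-positive replicate 1 (11 fragments) and near Gpr162 in EpCAM-positive replicate 2 (10 fragments). By the pattern over the 4 libraries of the internal region that reached the highest −log10 q of a single list (chr6:124885775-124886320), Cd4 was nearest among 8423 genes to Nynrin, with 11, 22, 15 and 11 summit fragments (EpCAM-positive 1 and 2, then EpCAM-negative 1 and 2), and to Mill2, with 12, 23, 15 and 9. The distances were 0.17 and 0.23 in log2 scaled pileup. Among 8423 genes compared over 4 small counts some gene is bound to lie close. The shared pattern is largely a gap between the 2 EpCAM-positive libraries, so no likeness of control is drawn from it. Cd8a and Cd8b1 had no shared region inside the gene, so no such neighbour was sought for them.

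The Cd8 locus looked different: many weak peaks, few of them shared. Cd8a (chr6:71373427-71379171) and Cd8b1 (chr6:71322788-71337492) encode the alpha and beta chains of CD8, which binds MHC class I. The Cd8b1 window held 9 regions and the Cd8a window 6 of the same, and 1 was shared while 5 were called in 1 list alone. Over all regions 46.3% were shared and 29.8% were called in 1 list, and counts out of 9 are small. Of protein-coding genes, 38.5% had a shared region inside the gene. Among the members these were Cd4, Themis, Arpp21 and Bcl6, 4 of 9. The region density was still high, with 95.03 per Mb for Cd8b1 and 69.97 per Mb for Cd8a, more than 95.7% and 87.4% of windows.

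The single shared Cd8 region, at chr6:71341147-71341634, lay between the genes, 3880 bp beyond Cd8b1 and 32055 bp from the start of Cd8a. It had summit fragments of 10 and 16 in EpCAM-positive libraries, against 8 and 15 in EpCAM-negative libraries. Scaled values were 0.32 and 0.50 in EpCAM-positive and 0.32 and 0.60 in EpCAM-negative libraries, which overlap (log2 ratio −0.16, counting interval −1.02 to 0.72). It ranked among the weaker shared regions by −log10 q, q being the caller's adjusted p: 0.442% and 11.1% of them had a lower value in EpCAM-positive lists, against 0.173% and 22.2% in EpCAM-negative lists. Here the libraries of one fraction differed more from each other than the fractions did.

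Over the low-coordinate end of Cd8b1, at chr6:71322314-71322881, where the long non-coding RNA gene Gm38828 is also annotated, a peak was listed in 3 libraries, with 7 summit fragments in EpCAM-positive replicate 2 and 8 and 14 in the EpCAM-negative libraries. It was not called in EpCAM-positive replicate 1. With all lists cut to the 24598 strongest peaks it was called in both EpCAM-negative lists alone. A further pair of Cd8b1 regions was called in 3 lists. One, at chr6:71307501-71307896, had 7 and 10 in EpCAM-positive libraries, with 9 in replicate 1 of the EpCAM-negative fraction. The other, at chr6:71353644-71354010 between the genes, had 10 in EpCAM-positive replicate 2 and 9 in each EpCAM-negative library. Each of these sites thus appeared in both fractions, with 1 library missing it.

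All 3 regions nearest to Cd8a were called in EpCAM-positive replicate 1 alone. They lay inside the gene (chr6:71376688-71377009, 9 summit fragments), 3852 bp before its start (chr6:71369265-71369680, 8 fragments) and 12728 bp before it (chr6:71360576-71360815, 6 fragments). Without that library Cd8a had no region of its own, so these peaks have no second library behind them. EpCAM-negative replicate 1 alone had a peak of 13 fragments 517 bp beyond Cd8b1 (chr6:71337963-71338191) and 1 of 7 fragments near the end of Gm1070 (chr6:71302320-71302640). Peaks of 6 or 7 fragments were the lowest listed in each library at the member genes.

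Zbtb7b (chr3:89377644-89393673) encodes ThPOK, the factor that commits thymocytes to the CD4 lineage, and its window held 7 regions, 6 of them shared. The pair of regions nearest to Zbtb7b itself were 1 with higher scaled pileup in EpCAM-positive libraries and 1 called in those lists alone. At chr3:89396273-89396809, 3102 bp upstream of the nearest listed start and within the long non-coding RNA gene Gm15417, summit fragments were 16 and 25 in EpCAM-positive libraries, against 10 and 11 in EpCAM-negative libraries. Scaled summit pileups were 0.516 and 0.781 in EpCAM-positive and 0.400 and 0.440 in EpCAM-negative libraries, and the fractions did not overlap. The log2 ratio of 0.63 (counting interval −0.16 to 1.47) was above that of 96.8% of all shared regions, and it was 0.31 without EpCAM-positive replicate 2. A silencer of Zbtb7b is known upstream of its distal promoter, and whether this region is that element was not tested.

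The second, EpCAM-positive-only region lay inside Zbtb7b at chr3:89378234-89378771, 1016 bp from the low-coordinate end, where the minus-strand gene ends. It had 16 and 24 summit fragments and −log10 q of 8.71 and 16.3 in the EpCAM-positive lists, and the nearest peak of either EpCAM-negative list was 17595 bp away. Of protein-coding genes, 13.9% had an EpCAM-positive-only region in the window, as did 2 of the 9 members, while 4.18% had an EpCAM-negative-only one, as did 0 members. EpCAM-negative lists did hold peaks of 6 and 7 fragments at other member genes, but over low local backgrounds (0.530 and 0.470 at Arpp21). The EpCAM-positive peaks inside Zbtb7b lay over 1.68 and 1.86. What the EpCAM-negative lists could have called at this site was not tested. The lowest common background was higher in the EpCAM-positive libraries, and its part in the count of EpCAM-positive-only regions was not tested. The remaining 5 regions, at the ends of Efna4, Dcst1, Flad1, Shc1 and Pygo2, were shared and overlapped between the fractions, with log2 ratios from −0.24 to 0.14.

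Bcl6 (chr16:23965050-23988866) encodes a transcriptional repressor that directs follicular helper T cells and is also made by double-positive thymocytes. Its window held 3 regions, and none separated the fractions. Over its start, at chr16:23988610-23989137, where the long non-coding RNA gene Gm31527 is annotated too, EpCAM-positive libraries had 61 and 46 summit fragments, against 49 and 35 in the EpCAM-negative libraries, and scaled values overlapped (log2 ratio 0.02, counting interval −0.41 to 0.45). The authors' fold enrichment at that peak was 7.43 and 6.26 in EpCAM-positive and 8.73 and 7.38 in EpCAM-negative lists, over a solved local background of 7.34 and 6.51 in EpCAM-positive and 4.73 and 3.88 in EpCAM-negative libraries. A region inside the gene, at chr16:23982407-23982736, had 45 and 58 summit fragments in EpCAM-positive, against 37 and 37 in EpCAM-negative libraries, with a log2 ratio of 0.14 and overlapping scaled values. Between them a peak at chr16:23984766-23984988 was called in EpCAM-positive replicate 2 alone, with 25 fragments over a local background of 8.11.

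Themis (chr10:28668360-28883820) encodes a T cell-lineage adaptor that tunes T cell receptor signalling during positive selection. Its start lay in a called peak in every library. The region over it, at chr10:28668068-28668853, had summit fragments of 19 and 17 in EpCAM-positive libraries, against 16 and 17 in EpCAM-negative libraries. Scaled values of 0.613 and 0.531 in EpCAM-positive and 0.640 and 0.680 in EpCAM-negative libraries did not overlap, but the log2 ratio of −0.21 (counting interval −0.93 to 0.52) turned to 0.13 without scaling. It was −0.31 or −0.09 with replicate 1 or 2 of the EpCAM-positive fraction left out, and −0.13 without the second EpCAM-negative library. The other 3 regions of the long Themis window were weak: chr10:28632604-28632991 was called in replicate 1 of each fraction (6 fragments in EpCAM-positive, 8 in EpCAM-negative), chr10:28695071-28695535 in replicate 2 of each (9 in EpCAM-positive, 11 in EpCAM-negative), and 1 more in EpCAM-positive replicate 2 alone (9 fragments). With 13.5 regions per Mb, Themis had the sparsest window of the 9 genes.

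Tespa1 (chr10:130322826-130363469), which encodes a thymocyte protein needed for T cell receptor signalling in positive selection, had the lowest EpCAM-positive to EpCAM-negative ratio of all member regions. The region over its low-coordinate end, at chr10:130322587-130323127, had summit fragments of 11 and 10 in EpCAM-positive libraries, against 19 and 19 in EpCAM-negative libraries. Scaled summit pileups were 0.355 and 0.313 in EpCAM-positive and 0.760 and 0.760 in EpCAM-negative libraries, and the fractions did not overlap. The log2 ratio was −1.19 (counting interval −2.03 to −0.38), and 0.286% of all shared regions had a lower one. Those regions were of every strength and not matched to the 21 and 38 summed fragments here, so the rank may overstate how unusual the ratio is. The ratio lay between −1.28 and −1.08 with any 1 library left out, and was −1.28 when scaled by background and −0.86 without scaling. By −log10 q the peak ranked above 4.82% and 2.15% of shared regions in EpCAM-positive lists, against 40.6% and 42.3% in EpCAM-negative lists. Its summits lay up to 217 bp apart between libraries, so the fragments compared were not all read at 1 position. The peaks covered 253 and 335 bp in EpCAM-positive lists, against 541 and 457 bp in EpCAM-negative lists. The other Tespa1 region, at chr10:130313676-130313981, had 9 fragments in EpCAM-positive replicate 2 and 9 in EpCAM-negative replicate 1 and was called in neither of the others.

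Cd2 (chr3:101275908-101287939) encodes an adhesion and costimulatory receptor of T cells, and its window held 2 regions, both shared. At chr3:101274669-101275222, 921 bp beyond the low-coordinate end of Cd2, summit fragments were 17 and 20 in EpCAM-positive libraries, against 28 and 25 in EpCAM-negative libraries. Scaled summit pileups of 0.548 and 0.625 in EpCAM-positive and 1.12 and 1.00 in EpCAM-negative libraries did not overlap. The log2 ratio was −0.85 (counting interval −1.50 to −0.22), with 1.87% of shared regions lower, and it lay between −0.93 and −0.76 with any 1 library left out. It was −0.94 with background scaling and −0.52 without scaling. At the opposite side, 9517 bp beyond the high-coordinate end (chr3:101297090-101297745), the values were 33 and 38 in EpCAM-positive and 31 and 30 in EpCAM-negative libraries. There the scaled values were separated by little, with a log2 ratio of −0.12 that turned to 0.22 without scaling and was −0.04 or −0.18 with replicate 1 or 2 of the EpCAM-positive fraction left out.

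Arpp21 (chr9:112065091-112236288), which encodes an RNA-binding phosphoprotein made in immature thymocytes and in neurons, held 8 regions, all of them inside the gene. Its 4 shared regions were lower in scaled summit pileup in both EpCAM-positive libraries, but without scaling the fractions overlapped at all 4. Over a pair of listed starts, at chr9:112217049-112217716, summit fragments were 28 and 42 in EpCAM-positive libraries, against 39 and 35 in EpCAM-negative libraries, with a log2 ratio of −0.42 (counting interval −0.91 to 0.08) and of −0.08 without scaling. The shortfall rested more on EpCAM-positive replicate 1: the log2 ratio was −0.17 without it and −0.69 without EpCAM-positive replicate 2.

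Further into Arpp21, a region at chr9:112207771-112208358 had summit fragments of 26 and 47 in EpCAM-positive libraries, against 46 and 47 in EpCAM-negative libraries. Its scaled values were 0.839 and 1.47 in EpCAM-positive and 1.84 and 1.88 in EpCAM-negative libraries, giving a log2 ratio of −0.69 (counting interval −1.15 to −0.23), or −0.35 without scaling. That ratio was −0.34 or −1.13 with replicate 1 or 2 of the EpCAM-positive fraction left out, so its size differs between the EpCAM-positive libraries. At chr9:112186310-112186873, 548 bp from the start of a shorter transcript, the counts were 14 and 14 in EpCAM-positive and 12 and 27 in EpCAM-negative libraries. The log2 ratio of −0.81 (counting interval −1.57 to −0.07) rested on EpCAM-negative replicate 2: it was −0.07 without that library and −1.31 without EpCAM-negative replicate 1. With all libraries and no scaling it was −0.48. The Arpp21 region with the highest −log10 q in 3 of 4 lists (not in EpCAM-negative replicate 1), at chr9:112174610-112175485, had 55 and 60 in EpCAM-positive, against 48 and 58 in EpCAM-negative libraries, with a log2 ratio of −0.22 that turned to 0.12 without scaling and was −0.37 or −0.04 with replicate 1 or 2 of the EpCAM-negative fraction left out.

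Arpp21 also had an EpCAM-positive-only region, at chr9:112224929-112225235, where the EpCAM-positive libraries had 14 and 15 summit fragments, with no EpCAM-negative peak within 7223 bp. It lay 7743 bp from the nearest listed start. Near the high-coordinate end, chr9:112235227-112235488 was called in 3 lists, with 16 and 22 fragments in EpCAM-positive libraries, against 17 in EpCAM-negative replicate 2. The remaining regions were 1 with 7 fragments in EpCAM-positive replicate 2 and 7 and 6 in EpCAM-negative libraries (chr9:112116371-112116842), and 1 in EpCAM-positive replicate 2 alone with 23 fragments (chr9:112214005-112214218).

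**Figure D2:**
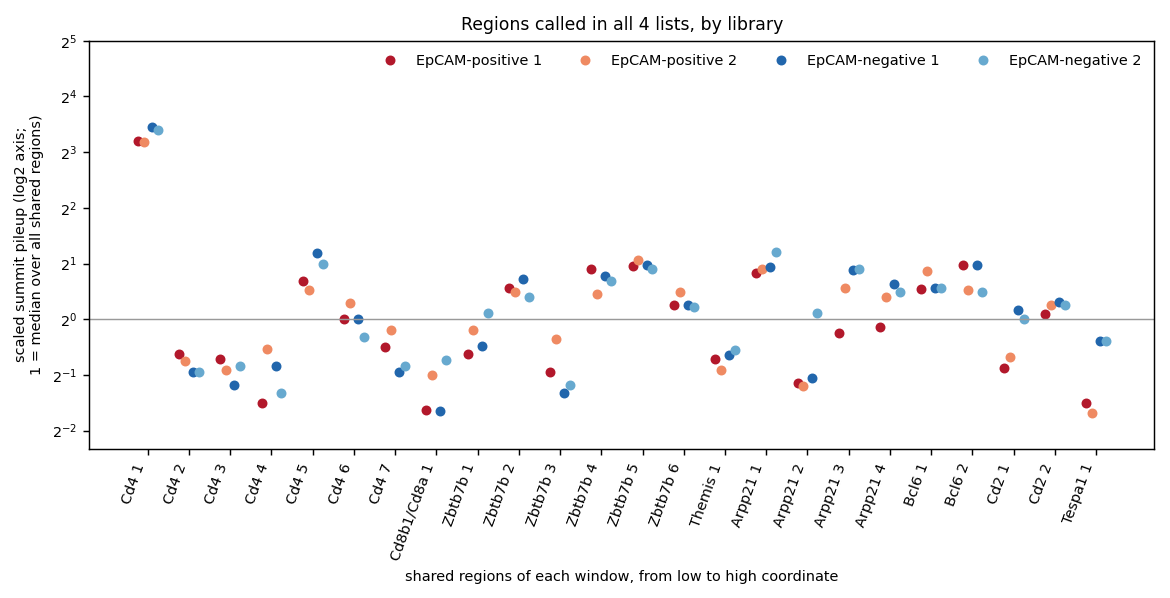
Scaled summit pileup (log2 axis, 1 being the median over all shared regions) of the 24 shared member regions, 1 point per library, in order of coordinate within each window. EpCAM-positive points lie below both EpCAM-negative points at 10 regions, among them all 4 of Arpp21, both of Cd2 and that of Tespa1, and above them at 3. Without scaling, 4 of the 10 turn to the opposite direction: Usp5 (Cd4 1), Themis 1, Arpp21 1 and Cd2 2.

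Across the 24 shared member regions, scaled summit pileup was lower in both EpCAM-positive libraries at 10 (41.7%, against 24.4% of 16761 shared regions) and higher in both at 3 (12.5%, against 19.3%). This split depends on the scaling: without it, 2 were lower and 12 higher, against 5.20% and 49.4% of all shared regions, while scaling by background left the member counts at 10 and 3 (32.1% and 13.3% of all). The median log2 ratio of the members was −0.08, against −0.03 over all shared regions, whose 5th and 95th percentiles were −0.64 and 0.55. Unscaled, these medians were 0.26 and 0.30. Outside that range were Tespa1, Cd2, and a pair of Arpp21 regions below, and Zbtb7b and the region near Ptms above. The range pools shared regions of every strength, and ratios of regions with few fragments scatter more.

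Of the 14 shared regions nearest to a member gene, 8 were lower in EpCAM-positive libraries in scaled pileup (24.4% over all shared regions), 1 was higher and 5 overlapped, with a median log2 ratio of −0.18. Of the other 10 shared regions, nearest to another gene, 2 were lower and 2 higher, with a median of 0.02. The split by nearest gene was made after the values were seen, and the difference was not tested. The 8 lower regions were 4 of Arpp21, 2 of Cd2, 1 of Themis and 1 of Tespa1. Without scaling, the Tespa1 region and the Cd2 region at chr3:101274669-101275222 were the 2 that remained lower in both EpCAM-positive libraries, and those of Themis (0.13), Arpp21 at chr9:112174610-112175485 (0.12) and Cd2 at chr3:101297090-101297745 (0.22) turned direction. In form the member regions were ordinary at the median: width was 630.5 bp (330 to 1251), against 681 bp over all shared regions. The 4 summits of a region lay within a median of 89 bp (18 to 299), against 91 bp over all shared regions. Summit fragments are read at each library's own summit, so a wide spread compares different positions.

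**Figure D3:**
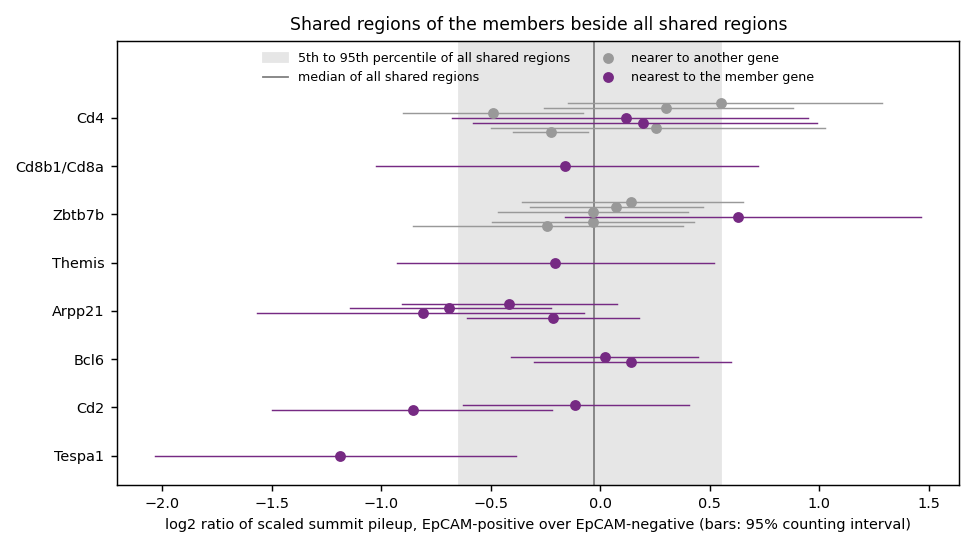
Log2 ratio of mean scaled summit pileup, EpCAM-positive over EpCAM-negative, for each shared region by locus, with bars for the 95% counting interval. Purple points are nearest to the member gene and grey points nearest to another gene. The grey band spans the 5th to 95th percentile of all shared regions, of every strength (−0.64 to 0.55), and Tespa1, at −1.19, lies farthest outside it. Of the 13 regions whose scaled values separate the fractions, the 4 that turn direction without scaling (Usp5, Themis, 1 of Arpp21 and 1 of Cd2) lie between −0.23 and −0.12.

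The other genes of coreceptor control and of the double-positive stage, 25 in number, were counted in the same way. Their windows held 217 regions, 111 of them shared (51.2%), and of the shared regions 30 (27.0%, against 24.4% of all shared regions) were lower in both EpCAM-positive libraries and 16 (14.4%, against 19.3%) higher, with a median log2 ratio of −0.04. EpCAM-positive-only regions numbered 7 (3.23%, against 4.40% of all regions) and EpCAM-negative-only regions 8 (3.69%, against 1.72%). Among regulators of the coreceptors, Runx3, which silences Cd4 in CD8 cells, had an EpCAM-positive-only region inside the gene (chr4:135140542-135141079, 15 and 11 summit fragments). Runx1, its relative that acts in double-negative cells, also had one (chr16:92620848-92621206, 13 and 14). Patz1, whose product MAZR represses the Cd8 genes, had one called in EpCAM-negative lists alone, at 4385 bp from the gene (chr11:3313297-3313703, 18 and 19).

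Tox, needed for the CD4 lineage, had one of each kind inside the gene, with 22 and 22 fragments in the EpCAM-positive-only region and 7 and 9 in the EpCAM-negative-only one. Tcf12, which encodes the E protein HEB, likewise had an EpCAM-positive-only region (8 and 6) and an EpCAM-negative-only region (12 and 8). Tcf3, which encodes the E2A proteins, had 3 EpCAM-positive-only regions in its window, with 10 to 14 fragments. The EpCAM-negative-only regions also included 2 at Ikzf1, which encodes Ikaros, 1 near the chemokine receptor gene Ccr9 (16 and 22), 1 near the activation marker gene Cd69 (9 and 9) and 1 that the recombinase genes Rag1 and Rag2 share (7 and 4). The EpCAM-negative lists reached lower −log10 q (1.32 and 1.34) than the EpCAM-positive lists (2.07 and 2.02). The part of this in such weak regions was not tested.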

How the data were processed

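Per the submitters' processing notes, MACS3, Bowtie2, Picard, SAMtools, deepTools, bedtools, Trimmomatic, Trim Galore and FastQC were used with mouse build mm10 (GRCm38). Versions, settings, duplicate handling and any shift of reads remain not given in the sources used here. What the authors deposited was 1 peak list per library, in which each peak has a score, a fold over local background, and −log10 p and q from the authors' caller. The score was checked only, while fold and −log10 values served to solve summits and to rank peaks within a list.

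Autosomal, X and Y peaks were joined into regions. Summit fragments are the whole number solving fold, with 1 added to both terms, and the Poisson p, within 0.01 on −log10 p. These are the usual MACS definitions, assumed here because the caller's settings are unknown, and every fragment count rests on them. All peaks were solved, and the 1.94% to 4.14% with more than 1 solution took the closest. Log2 ratios are of mean scaled pileups. Depth in reads is not known. Intervals are Clopper-Pearson at 95%.

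Gene spans and promoters are from RefSeq GRCm38.p6. The promoter table gave strand and starts for 5 members, and the gene table gives no strand or exons, so the other genes are described by their low- and high-coordinate ends, with no call of exon or intron. Marker genes were counted by regions with a summit inside or within 1000 bp of the gene. The genes, lists and measures were chosen with earlier results of these data known. Named regions were those over a start or gene end, the strongest inside and in the flanks, regions of 1 fraction alone, and separated regions with a log2 ratio over 0.5 in size, and the text describes most others too. No test was run. Python 3.11.15, pandas 2.3.3, NumPy 2.4.6, SciPy 1.17.1 and matplotlib 3.10.9 were used.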

Additional observations from a re-analysis of the deposited data

How the results depend on the processing

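The count of shared member regions with higher scaled summit pileup in both EpCAM-positive libraries was 3. It was 6 when peaks had to overlap by 50% of the shorter one (21.5% of all shared regions) and 5 with lists of equal length (20.5%). It was 0 of 10 within gene spans alone and 1 of 14 among regions nearest to a member, against 19.3% of all. Without scaling it was 12 (49.4% of all). With 1 library left out it was 8 to 9, where 31.4% to 35.1% of all shared regions met the looser rule. The count lower in both was 10, with 6 of 10 within gene spans alone (24.4% of all shared regions) and 2 without scaling (5.20%). It was 9 with the 50% overlap (21.6% of all) and 9 with lists of equal length (22.6%). It was 11 to 13 with 1 library left out, where 35.7% to 40.3% of all shared regions met the looser rule. Shared regions numbered 24 of 44. They were 10 of 20 within gene spans alone and 14 of 29 among regions nearest to a member, both near the 46.3% of all regions. With 1 library left out they numbered 24 to 27 (51.3% to 52.9% of all regions). EpCAM-positive-only regions numbered 2, and 3 to 7 with 1 library left out (8.18% to 16.7% of all regions). EpCAM-negative-only regions numbered 0, with 1 in lists of equal length (at Cd8b1, 2.44% of all regions). They numbered 0 to 3 with 1 library left out (3.44% to 9.37% of all regions). A minimum −log10 q of 3 in each list, a 500 bp margin for absence and scaling by background changed none of these counts by over 1.5 times. Without scaling, the log2 ratio turned to 0.11 near Usp5, 0.13 at Themis, 0.12 at the Arpp21 region at chr9:112174610-112175485 and 0.22 beyond the high-coordinate end of Cd2. No paired analysis was possible because the labels do not say whether equal replicate numbers mark a shared sort. No result comes from a test. With 2 libraries a fraction, the depth leaves wide counting intervals on the ratios of single regions.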
